A study of Homo sapiens with 12 samples.

Results

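The genes described here are those of RNA polymerase II other than its largest subunit POLR2A, of the general factors TFIIA, TFIIB, TFIIE, TFIIF and TFIIH, and of the factors DSIF, NELF and TFIIS that act on the polymerase after it has started. They were chosen by name and function and are 35 of the 32010 genes in the table. All 35 passed the filter on low counts, and the lowest count of any of them in any library was 743. TFIID itself, to which TAF5 belongs, is not among them.

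Polyadenylated RNA of 12 libraries was measured, 3 in each of 4 groups of HEK293 Flp-In cells, an established human embryonic kidney line with a site for inserting transgenes. In ΔE8 and FL cells endogenous TAF5 was depleted with an siRNA and, 24 h later, doxycycline induced an siRNA-resistant TAF5 for 48 h, lacking exon 8 in ΔE8 cells and full length in FL cells. siTAF5 cells received the TAF5 siRNA with no named transgene, and siNT cells a non-targeting siRNA. All 4 groups are labelled as siRNA with doxycycline, a single TAF5 siRNA was used, and neither the line used for siTAF5 and siNT cells is given in the labels nor whether replicates were separate cultures. The p-values therefore measure the spread between these samples, which may be technical. Doxycycline doses differed between ΔE8 and FL, so the isoform and the dose cannot be told apart, nor can the transgene and the line where transgene cells are set against cells without one.

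TFIID binds core promoters, and TAF5 is one of its structural subunits. TFIIA and TFIIB join promoter-bound TFIID, TFIIF escorts the polymerase, and TFIIE brings in TFIIH, which opens the DNA and carries the kinase that phosphorylates the polymerase tail. DSIF and NELF then hold the polymerase shortly after the start site, DSIF also travels with it as an elongation factor, and TFIIS rescues stalled polymerases.

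Library totals were 41.8 to 62.5 M counts, and the 35 genes took 0.268% to 0.314% of them. Levels are given in CPM, that is counts brought to one scaled library size. TAF5 averaged 88.0 ± 0.757 CPM in ΔE8, 105 ± 2.44 CPM in FL, 6.72 ± 0.612 CPM in siTAF5 and 40.0 ± 0.698 CPM in siNT libraries (SD, n = 3 each), which matched the labels of knockdown and transgene. Counts of a whole gene do not show whether exon 8 was present, so the labels of the isoforms were not checked. PAX2 at 4.99 to 8.57 CPM and NEFL at 248 to 371 CPM, both known from HEK293 cells, were present in every library, and NEFM was low, at 0.902 to 1.73 CPM. Of 5 fibroblast markers, summed at 8.29 to 8.82 CPM in ΔE8, 8.75 to 10.1 CPM in FL, 10.45 to 11.3 CPM in siTAF5 and 17.0 to 17.5 CPM in siNT libraries, COL1A1 carried most, and COL1A2 and DCN had at most 8 counts over the 12 libraries. Of the blood markers, HBA1 reached 5.84 to 10.7 CPM, and PTPRC, HBB and CD3E had at most 10 counts each over the 12 libraries. The part of these markers in the results below was not tested. In bulk RNA, fewer cells of a type and less RNA per cell cannot be told apart.

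The start regions of 4 genes are shown because GTF2A1, POLR2L and SUPT5H had the largest rises in both the knockdown and the isoform comparison, and CDK7 the largest fall with siTAF5. Each runs 5′ to 3′ on the gene's own strand from -120 to +30 around the RefSeq start, in build GRCh38.p14, with matches to the motifs searched in capitals. The stretches are chr14:81221361-81221510 on the minus strand for GTF2A1, chr11:842500-842649 on the minus strand for POLR2L, chr19:39445462-39445611 on the plus strand for SUPT5H and chr5:69234766-69234915 on the plus strand for CDK7.
GTF2A1: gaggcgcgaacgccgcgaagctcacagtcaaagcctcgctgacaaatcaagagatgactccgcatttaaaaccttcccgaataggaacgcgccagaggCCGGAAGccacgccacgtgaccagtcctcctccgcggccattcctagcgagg
POLR2L: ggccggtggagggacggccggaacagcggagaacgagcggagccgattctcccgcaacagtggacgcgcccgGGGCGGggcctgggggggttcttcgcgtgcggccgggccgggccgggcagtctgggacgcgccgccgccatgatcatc
SUPT5H: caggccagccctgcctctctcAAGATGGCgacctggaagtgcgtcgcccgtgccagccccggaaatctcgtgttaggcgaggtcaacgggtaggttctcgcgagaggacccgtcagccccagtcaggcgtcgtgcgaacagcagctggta
CDK7: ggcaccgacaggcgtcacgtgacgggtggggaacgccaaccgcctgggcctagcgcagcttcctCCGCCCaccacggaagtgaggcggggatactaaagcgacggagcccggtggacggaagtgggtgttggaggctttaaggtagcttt
The capitals are CCGGAAG in GTF2A1, GGGCGG in POLR2L, AAGATGGC in SUPT5H, and GGGCGG read on the other strand in CDK7. The RefSeq start of SUPT5H lies inside the gene's span in the deposited table, so another start of this gene is not covered by the stretch.

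RefSeq start regions, 250 bases before to 50 after the start, were found for 29 of the 35 genes and searched on both strands. CCGGAAG, the core of the ETS family motif, occurred in 13 of 29 (44.8%), against 10.3% of all 35116 RefSeq start regions and 17.6% of the 12590 of genes tested. GGGCGG, the core of the SP1 motif, occurred in 18 (62.1%), against 45.0% of all and 68.9% of those of tested genes. CCAAT, the core of the NFY motif, occurred in 3 (10.3%), in GTF2E1, GTF2H4 and ERCC2, against 34.6% of all and 36.4% of those of tested genes. GCGCATGC, a core of the NRF1 motif, occurred in 3 (10.3%), in NELFB, NELFCD and POLR2F, against 3.05% of all and 5.15% of those of tested genes. AAGATGGC, the core of the YY1 motif, also occurred in 3 (10.3%), in GTF2E1, NELFA and SUPT5H, against 2.89% and 4.85%. TATAAA, searched on the gene's own strand from -40 to -20, was found in GTF2B alone (3.45%), against 2.25% of all start regions and 1.83% of those of tested genes. These are matches of letters in a window and not measured sites. The median GC content was 61.7% over the 29 genes, against 58.7% over all start regions and 65.3% over those of tested genes.

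Per kilobase of annotated exon, the scale on which genes can be set against each other, POLR2I stood highest in siNT cells at 82.0 CPM per kb, followed by POLR2E at 79.4, SUPT5H at 62.9, POLR2G at 61.9 and POLR2L at 60.3 CPM per kb. The lowest were GTF2H5 at 4.22, GTF2E1 at 5.24, GTF2H1 at 6.14, MNAT1 at 9.24 and GTF2A1 at 11.9 CPM per kb. In siTAF5 cells POLR2L reached 86.2 and SUPT5H 82.7 CPM per kb, against 81.9 for POLR2I. The exon lengths are those of all annotated transcripts of a gene together, so a gene with long exons that are rarely used is understated.

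The first comparison, siTAF5 against siNT, addressed TAF5 depletion. With siTAF5 both TFIIA genes, both DSIF genes and the shared polymerase subunit POLR2L rose, and CDK7, GTF2F2, TCEA1, GTF2E2 and NELFB fell. By edgeR's quasi-likelihood test with Benjamini-Hochberg adjustment over 19424 genes and a threshold of 0.05, 14 of the 35 rose, 5 fell and 16 did not pass. Of all genes tested, 24.7% rose and 25.0% fell, 49.7% in all, against 54.3% of the 35. Among the 8630 genes with mean levels in the same range as the 35, from 17.6 to 336 CPM, 65.8% passed. Of these 8630, 34.1% rose and 31.7% fell. With libraries scaled by their totals, 21 rose and 5 fell, POLR2B, GTF2B, GTF2E1, GTF2H2, GTF2H4, NELFA and NELFE being added, and over all genes 5662 rose and 4140 fell. For 22 of the 35 no siTAF5 library lay within the range of siNT, nor the reverse, against 57.3% of all genes tested.

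GTF2A1, which encodes the precursor of the large TFIIA subunits, had 125, 121 and 119 CPM in ΔE8, 91.6, 87.9 and 93.2 CPM in FL, 111, 117 and 109 CPM in siTAF5 and 73.1, 78.3 and 76.7 CPM in siNT libraries. Every library with the TAF5 siRNA stood above every siNT library, and the FL libraries lay between siTAF5 and siNT. The rise with siTAF5 was 1.48-fold (log2 0.56, SE 0.033, edgeR adjusted p = 4.05e-11), the largest of the 35. GTF2A2, the small TFIIA subunit, averaged 53.5 ± 1.45 CPM in siTAF5 and 49.0 ± 0.923 CPM in siNT libraries and rose by log2 0.13 (SE 0.031, edgeR adjusted p = 0.00203). The large and the small TFIIA subunit thus both rose with siTAF5, by different sizes. GTF2A1 lies at chr14:81175452-81221377 in hg38 and overlaps the small RNA gene SNORA79 on its own strand and an antisense gene.

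POLR2L, a small subunit that RNA polymerases I, II and III share, had 84.9, 84.1 and 89.9 CPM in ΔE8, 72.2, 69.1 and 70.2 CPM in FL, 75.2, 76.6 and 78.8 CPM in siTAF5 and 55.4, 52.8 and 53.1 CPM in siNT libraries. No group overlapped another. The rise with siTAF5 was 1.43-fold (log2 0.52, SE 0.032, edgeR adjusted p = 1.11e-10). POLR2L lies at chr11:837356-842529 in hg38 and overlaps CD151 on the other strand. The kit was stranded, but no source used here gives the strand setting of the counting, and CD151 averaged 104 CPM in siTAF5 and 110.0 CPM in siNT libraries, lower by log2 -0.09 (edgeR adjusted p = 0.0167), opposite in sign to POLR2L. In all, 20 of the 35 genes overlap a gene on the other strand and 12 overlap none, SUPT5H and CDK7 among the 12.

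Among the other polymerase subunits, POLR2C, which pairs with POLR2J at the base of the enzyme, had 90.4, 93.7 and 97.0 CPM in ΔE8, 93.1, 93.2 and 93.7 CPM in FL, 84.2, 80.2 and 85.0 CPM in siTAF5 and 73.7, 72.5 and 71.2 CPM in siNT libraries. Its siTAF5 libraries lay between the siNT libraries and those with a transgene, and the rise was log2 0.20 (SE 0.03, edgeR adjusted p = 1.69e-05). POLR2D and POLR2G, the pair that forms the stalk of the polymerase, rose by log2 0.19 and 0.17, and the shared subunits POLR2F and POLR2K by log2 0.14 and 0.16. In all, 3 of 6 subunits specific to RNA polymerase II and 3 of 5 shared ones rose and none fell, against 24.7% and 25.0% of all genes tested. POLR2B, the second largest subunit and partner of POLR2A in the catalytic cleft, had a log2 value of 0.03 (edgeR adjusted p = 0.408). POLR2A itself, which is not among the 35, averaged 707 ± 11.6 CPM in siTAF5 and 343 ± 5.13 CPM in siNT libraries, a 2.06-fold rise.

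Both DSIF genes rose. SUPT5H, the large subunit, had 397, 401 and 400.0 CPM in ΔE8, 356, 348 and 360.0 CPM in FL, 333, 334 and 341 CPM in siTAF5 and 255, 257 and 255 CPM in siNT libraries. The libraries of each group lay close together and no group overlapped another. The rise with siTAF5 was 1.31-fold (log2 0.40, SE 0.021, edgeR adjusted p = 1.42e-11). SUPT4H1, the small subunit, had 71.6, 69.2 and 69.6 CPM in ΔE8, 69.4, 66.9 and 69.1 CPM in FL, 61.5, 60.9 and 61.2 CPM in siTAF5 and 52.8, 50.2 and 52.3 CPM in siNT libraries. It was lowest in siNT, intermediate in siTAF5 and highest in both transgene groups, which overlapped each other. Its rise with siTAF5 was 1.18-fold (log2 0.24, SE 0.029, edgeR adjusted p = 8.56e-07).

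Of the 4 NELF genes, 1 fell and 3 did not pass, where 25.0% of all genes tested fell and 24.7% rose. NELFB had 115, 115 and 116 CPM in ΔE8, 121, 118 and 117 CPM in FL, 114, 114 and 115 CPM in siTAF5 and 128, 125 and 117 CPM in siNT libraries, with siTAF5 below every siNT library. It fell by 0.11 on the log2 scale (SE 0.03, edgeR adjusted p = 0.00387), and NELFA, NELFCD and NELFE had log2 values of 0.05, -0.02 and 0.04 and did not pass. TCEA1, the TFIIS gene that helps stalled polymerases cut their transcript and resume, had 139, 129 and 136 CPM in ΔE8, 143, 142 and 144 CPM in FL, 129.9, 135 and 127 CPM in siTAF5 and 138, 147 and 145 CPM in siNT libraries. It was lower with siTAF5 than in any siNT library, falling by 0.14 on the log2 scale (SE 0.032, edgeR adjusted p = 0.00131).

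Within TFIIH, 3 of 7 core genes rose and the kinase gene fell. GTF2H5, a small core subunit that stabilises the complex, had 37.1, 35.6 and 36.4 CPM in ΔE8, 34.96, 34.0 and 35.7 CPM in FL, 38.6, 36.7 and 36.4 CPM in siTAF5 and 31.6, 31.6 and 32.7 CPM in siNT libraries. It was lowest in siNT and rose by log2 0.22 with siTAF5 (SE 0.035, edgeR adjusted p = 3.1e-05). The helicase ERCC2, which acts in nucleotide excision repair, and the core subunit GTF2H1 rose by log2 0.16 and 0.13, so that 3 of 7 core subunits rose and none fell, against 24.7% and 25.0% of all genes tested. CDK7, the kinase of TFIIH, had 22.7, 20.4 and 21.9 CPM in ΔE8, 23.1, 24.4 and 23.6 CPM in FL, 20.4, 19.8 and 21.5 CPM in siTAF5 and 23.6, 23.4 and 24.8 CPM in siNT libraries. Every siTAF5 library lay below every siNT and every FL library. The fall was 0.22 on the log2 scale (SE 0.047, edgeR adjusted p = 0.000559), while its cyclin CCNH and its assembly factor MNAT1 had log2 values of 0.03 and 0.05 and did not pass.

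The TFIIF genes moved apart, and 1 of the TFIIE genes fell. GTF2F2, the small TFIIF subunit, had 52.5, 51.1 and 51.8 CPM in ΔE8, 53.2, 50.1 and 52.1 CPM in FL, 48.9, 48.5 and 48.3 CPM in siTAF5 and 51.7, 52.7 and 55.7 CPM in siNT libraries. It was lowest with siTAF5, by 0.14 on the log2 scale (SE 0.033, edgeR adjusted p = 0.0017), whereas GTF2F1, the large subunit, rose by log2 0.17 (SE 0.027, edgeR adjusted p = 2.47e-05). GTF2E2, the small TFIIE subunit, had 44.4, 43.1 and 42.4 CPM in ΔE8, 40.8, 40.4 and 42.0 CPM in FL, 46.7, 46.4 and 46.9 CPM in siTAF5 and 52.5, 49.6 and 51.4 CPM in siNT libraries. It stood highest in siNT and lower in both transgene groups than in siTAF5. Its fall with siTAF5 was 0.13 on the log2 scale (SE 0.031, edgeR adjusted p = 0.00154), and GTF2E1, the large subunit, had log2 0.13 (SE 0.053, edgeR adjusted p = 0.0538) and did not pass. It passed without siNT replicate 3 (log2 0.16, edgeR adjusted p = 0.0369) or siTAF5 replicate 1 (log2 0.16, edgeR adjusted p = 0.0163).

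**Figure D1:**
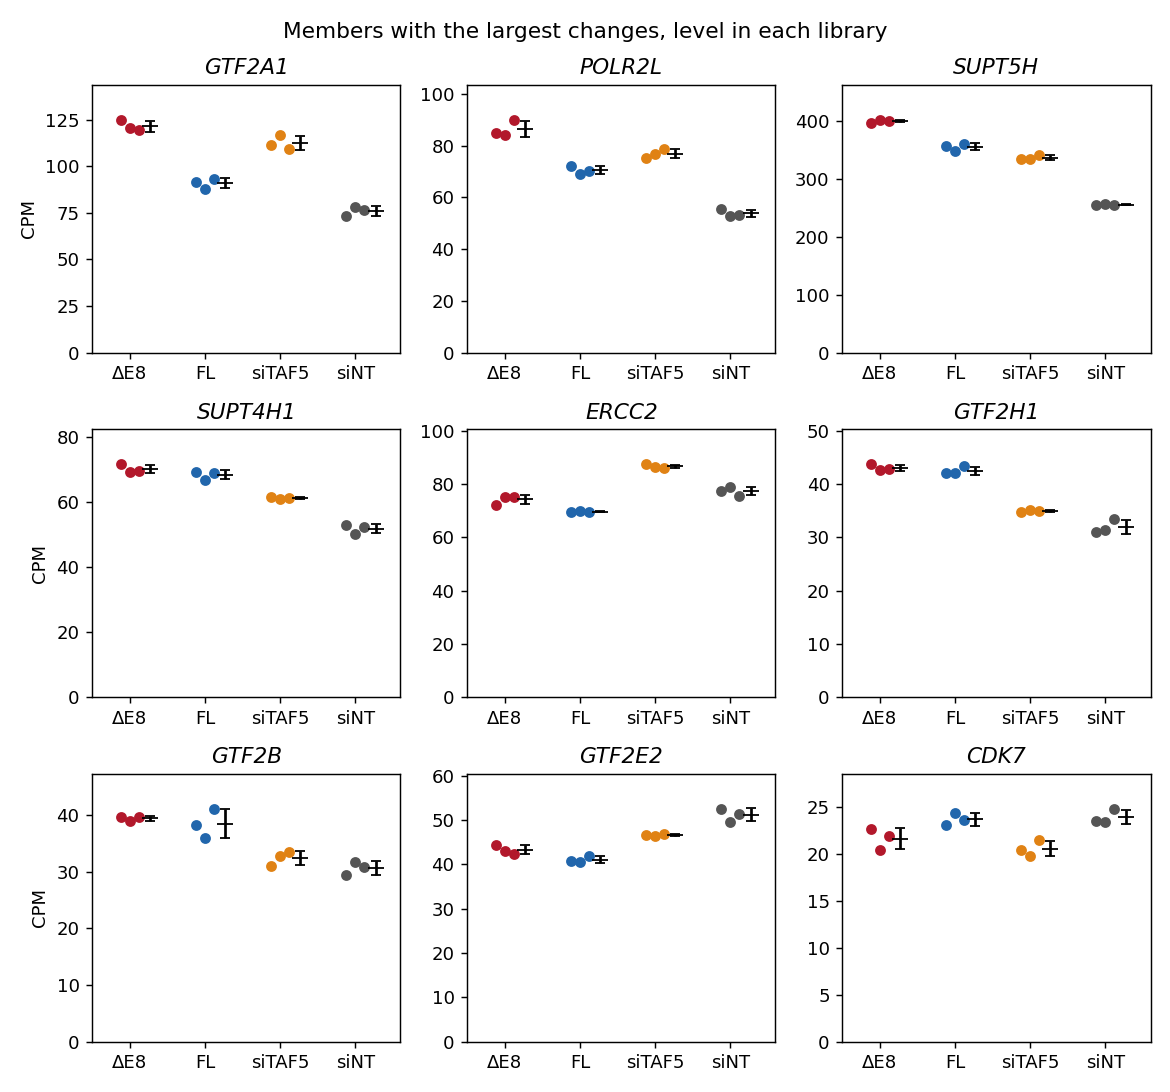
Level in CPM (vertical axes, from 0) of 9 genes in each of the 12 libraries, by group. Points are libraries and the black mark beside them is the mean ± SD (n = 3); GTF2A1, POLR2L and SUPT5H stand higher in ΔE8 than in FL and higher in siTAF5 than in siNT libraries.

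Most of these changes were small. The median size of the log2 change with siTAF5 was 0.13 over the 35 genes, against 0.19 over all genes tested, and 0.13 over the 8630 genes of the same range of levels. Called changes of at least 1.2-fold were found for 3 of the 35, GTF2A1, POLR2L and SUPT5H (8.57%), against 25.5% of all genes tested and 20.5% of the genes of the same range. The signed median was log2 0.07 over the 35 and 0.00 over all genes tested.

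**Figure D2:**
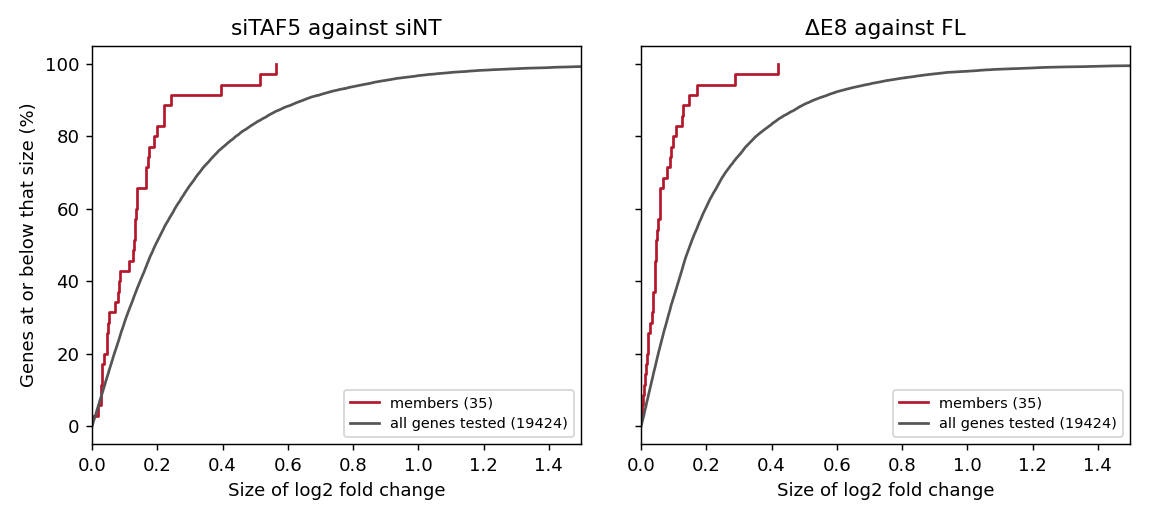
Share of genes in % (vertical axis) whose log2 fold change has at most the size on the horizontal axis, for the 35 genes and all 19424 tested, on the left for siTAF5 against siNT, on the right for ΔE8 against FL. The curve of the 35 rises faster in both panels, with median sizes of 0.13 and 0.05 against 0.19 and 0.15 over all genes.

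The next comparison, FL against siTAF5, addressed the return of full-length TAF5. In FL cells GTF2H1, GTF2B, CDK7 and NELFCD rose and ERCC2, GTF2A1, GTF2E2 and POLR2L fell. In all 18 rose, 6 fell and 11 did not pass, by edgeR's test, 68.6% called against 48.8% of all genes tested. Over all genes tested, 24.4% rose and 24.4% fell. Among genes of the same range of levels 66.4% were called, 37.9% higher and 28.4% lower. When libraries were scaled by their totals alone, the split was 12 higher and 8 lower among the 35, and over all genes 3748 higher and 5788 lower. FL and siTAF5 libraries were apart for 26 of the 35, against 56.3% of all genes tested. Called changes of at least 1.2-fold were 3 (8.57%), against 25.0% of all and 22.1% of genes of the same range. This comparison shares the siTAF5 libraries with the knockdown comparison, so opposite signs in both are not separate observations.

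GTF2H1, the TFIIH core subunit that contacts TFIIE, had 43.7, 42.6 and 42.9 CPM in ΔE8, 42.1, 42.0 and 43.3 CPM in FL, 34.8, 35.1 and 34.97 CPM in siTAF5 and 30.9, 31.4 and 33.5 CPM in siNT libraries. Both transgene groups stood above all libraries without a transgene and overlapped each other. The rise in FL over siTAF5 was 1.21-fold (log2 0.28, SE 0.035, edgeR adjusted p = 1.2e-06). GTF2B, which bridges promoter and polymerase, had 39.6, 38.9 and 39.7 CPM in ΔE8, 38.2, 36.0 and 41.1 CPM in FL, 31.1, 32.8 and 33.4 CPM in siTAF5 and 29.4, 31.7 and 30.8 CPM in siNT libraries. It too separated cells with a transgene from cells without one, with siTAF5 and siNT overlapping, and rose by log2 0.24 in FL over siTAF5 (SE 0.044, edgeR adjusted p = 0.000119). NELFCD had 118, 115 and 116 CPM in ΔE8, 119, 121 and 121 CPM in FL, 104, 106 and 106 CPM in siTAF5 and 108, 107 and 105 CPM in siNT libraries. This NELF subunit was higher in every transgene library than in any library without one. Its FL libraries lay above those of ΔE8, but ΔE8 against FL did not pass (log2 -0.05, edgeR adjusted p = 0.111). NELFCD rose by log2 0.20 in FL over siTAF5 (SE 0.024, edgeR adjusted p = 1.18e-06).

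ERCC2, the TFIIH helicase, had 72.3, 75.3 and 75.2 CPM in ΔE8, 69.7, 69.9 and 69.5 CPM in FL, 87.4, 86.5 and 86.0 CPM in siTAF5 and 77.6, 78.7 and 75.7 CPM in siNT libraries. It was highest with siTAF5, and FL libraries lay below all others. In FL it fell by 0.31 on the log2 scale against siTAF5 (SE 0.027, edgeR adjusted p = 7.71e-09), and the TFIIA gene GTF2A1 also by 0.31 (SE 0.033, edgeR adjusted p = 1.75e-07). POLR2L fell by 0.12 (SE 0.032, edgeR adjusted p = 0.0031), so that it kept a level in FL of 1.31-fold that in siNT libraries. CDK7 rose by log2 0.20 (SE 0.048, edgeR adjusted p = 0.00149) and had a log2 value of -0.02 in FL against siNT (SE 0.046, edgeR adjusted p = 0.772). ERCC2 lies at chr19:45349837-45370918 in hg38 and overlaps KLC3 on the other strand, whose mean was at most 4.22 CPM in any group.

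GTF2E2 fell further in FL, by 0.19 on the log2 scale against siTAF5 (SE 0.033, edgeR adjusted p = 8.27e-05). Of the polymerase subunits, 4 of 6 specific and 3 of 5 shared ones were higher, POLR2L was lower and the others did not pass. Over all genes tested 24.4% were higher and 24.4% lower, and over genes of the same range 37.9% and 28.4%. With scaling by totals POLR2B and POLR2G lost their calls, at log2 0.045 and 0.057 (edgeR adjusted p = 0.149 and 0.113). POLR2J, the partner of POLR2C, rose by log2 0.20 (SE 0.038, edgeR adjusted p = 0.000221). Its near copies POLR2J2 and POLR2J3 can share reads with it: with the 3 genes counted together, an alternative chosen after seeing the data, the value was log2 -0.003 (edgeR adjusted p = 0.951), so this rise is uncertain. The small falls of GTF2H4 and GTF2H5 and the small rises of GTF2F2 and NELFE each lost the call when 1 library was left out. For GTF2H4 that held for any 1 of FL replicates 1, 2 and 3 and siTAF5 replicates 2 and 3, with log2 values between -0.12 and -0.075. For GTF2H5 it held for FL replicates 1 and 2 and siTAF5 replicates 1 and 2, between -0.10 and -0.06, for GTF2F2 for FL replicates 1 and 3 and siTAF5 replicates 2 and 3, between 0.07 and 0.10, and for NELFE for FL replicate 1, at 0.075.

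The same question was put to TAF5 without exon 8. In ΔE8 cells GTF2H1, GTF2B, SUPT5H and SUPT4H1 rose over siTAF5, and ERCC2 and GTF2E2 fell. In all 19 rose, 2 fell and 14 did not pass, by edgeR's test, 60% called against 40.6% of all genes tested. Over all genes tested, 20.0% rose and 20.6% fell. Among genes of the same range of levels 58.5% were called, 34.8% higher and 23.7% lower. ΔE8 and siTAF5 libraries were apart for 23 of the 35, against 49.9% of all genes tested. The 2 called changes of GTF2H1 and GTF2B reached 1.2-fold (5.71%), against 15.8% of all and 11.8% of genes of the same range. GTF2H1 rose by log2 0.30 (SE 0.034, edgeR adjusted p = 1.01e-06) and GTF2B by log2 0.28 (SE 0.044, edgeR adjusted p = 3.9e-05). SUPT5H rose by log2 0.25 (SE 0.021, edgeR adjusted p = 2.89e-08) and SUPT4H1 by log2 0.20 (SE 0.029, edgeR adjusted p = 1.61e-05), so both DSIF genes moved further from siNT. GTF2A1 and POLR2L, which fell in FL, rose in ΔE8 by log2 0.11 (SE 0.032, edgeR adjusted p = 0.00749) and 0.16 (SE 0.031, edgeR adjusted p = 0.000298). ERCC2 fell by 0.22 on the log2 scale (SE 0.027, edgeR adjusted p = 1.61e-06). GTF2E2 fell by 0.11 (SE 0.032, edgeR adjusted p = 0.0111), a call lost without ΔE8 replicate 2 or 3, at log2 values of -0.09 in both cases and with 1 gene lower in place of 2. The small rises of POLR2G, POLR2F, GTF2A2, GTF2F2 and GTF2E1 each lost the call without 1 library, at log2 values of 0.08 for POLR2G without ΔE8 replicate 2 or 3 or siTAF5 replicate 1 or 2, 0.085 for POLR2F without ΔE8 replicate 3, and 0.12 for GTF2E1 without siTAF5 replicate 1. GTF2A2 lost it without ΔE8 replicate 2 or 3 or siTAF5 replicate 2 or 3, at 0.08 to 0.09, and GTF2F2 without ΔE8 replicate 1 or siTAF5 replicate 3, at 0.09 and 0.10. CDK7 had log2 0.07 (SE 0.048, edgeR adjusted p = 0.24) and TCEA1 log2 0.05 (SE 0.032, edgeR adjusted p = 0.278), and neither passed. Without ΔE8 replicate 2 TCEA1 did pass, at log2 0.09 (edgeR adjusted p = 0.0403).

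The isoforms were then compared with each other. GTF2A1, POLR2L, SUPT5H, NELFA and ERCC2 were higher in ΔE8 than in FL cells, and POLR2J, CDK7, POLR2I and TCEA1 were lower. That is 5 higher, 4 lower and 26 not past the threshold by edgeR's test, or 25.7% called, against 37.0% of all genes tested. Over all genes tested, 17.3% were higher and 19.7% lower. Among genes of the same range of levels 52.7% were called, 25.6% higher and 27.1% lower. ΔE8 and FL libraries were apart for 13 of the 35, against 45.7% of all genes tested. GTF2A1 was higher 1.34-fold (log2 0.42, SE 0.033, edgeR adjusted p = 5.84e-09) and POLR2L 1.22-fold (log2 0.29, SE 0.032, edgeR adjusted p = 6.24e-07), and these were the 2 called changes of at least 1.2-fold, 5.71% of the 35 against 14.7% of all genes tested. Among genes of the same range the share of such changes was 11.1%. SUPT5H was higher by log2 0.17 (SE 0.021, edgeR adjusted p = 2.75e-06) and ERCC2 by log2 0.09 (SE 0.027, edgeR adjusted p = 0.0123). NELFA, a NELF subunit, had 63.5, 62.1 and 60.5 CPM in ΔE8, 59.2, 54.6 and 56.8 CPM in FL, 57.2, 55.3 and 56.2 CPM in siTAF5 and 55.2, 53.6 and 54.5 CPM in siNT libraries. Its ΔE8 libraries were the highest of all 12, and the difference from FL was log2 0.12 (SE 0.033, edgeR adjusted p = 0.00474).

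The 4 genes that were lower rest on less. POLR2J had 57.3, 62.9 and 57.9 CPM in ΔE8, 67.4, 65.0 and 64.7 CPM in FL, 59.4, 56.9 and 56.2 CPM in siTAF5 and 63.3, 59.5 and 59.4 CPM in siNT libraries, so FL stood above the other groups. It was lower in ΔE8 by log2 -0.15 (SE 0.038, edgeR adjusted p = 0.00413), but with POLR2J2 and POLR2J3 counted in the value was log2 -0.03 (edgeR adjusted p = 0.503). POLR2J also overlaps LRWD1 on the other strand, which was higher in ΔE8 by log2 0.12 (edgeR adjusted p = 0.00418). POLR2I, a subunit that aids proofreading in yeast, had 67.2, 72.4 and 73.4 CPM in ΔE8, 80.2, 74.0 and 74.5 CPM in FL, 77.6, 72.3 and 74.5 CPM in siTAF5 and 77.6, 71.6 and 75.4 CPM in siNT libraries. The ΔE8 and FL libraries were separated by the narrow gap between 73.4 and 74.0 CPM, with log2 -0.11 (SE 0.04, edgeR adjusted p = 0.043). CDK7 was lower by log2 -0.13 (SE 0.047, edgeR adjusted p = 0.0404) and TCEA1 by log2 -0.09 (SE 0.032, edgeR adjusted p = 0.0353). Leaving out 1 library ended the calls of POLR2I, CDK7 and TCEA1: without ΔE8 replicate 2 their log2 values were -0.12, -0.08 and -0.05, and without FL replicate 2 they were -0.12, -0.10 and -0.085. POLR2I also lost its call without ΔE8 replicate 1 or FL replicate 1 (log2 -0.06 and -0.07), and TCEA1 without FL replicate 1 (log2 -0.09). CDK7 and TCEA1 lost theirs without ΔE8 replicate 3 or FL replicate 3, at log2 -0.13 in both cases for CDK7 and -0.09 and -0.08 for TCEA1. With libraries scaled by their totals, 9 of the 35 were higher and 1 was lower, and without ΔE8 replicate 3 there were 8 higher and 2 lower.

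**Figure D3:**
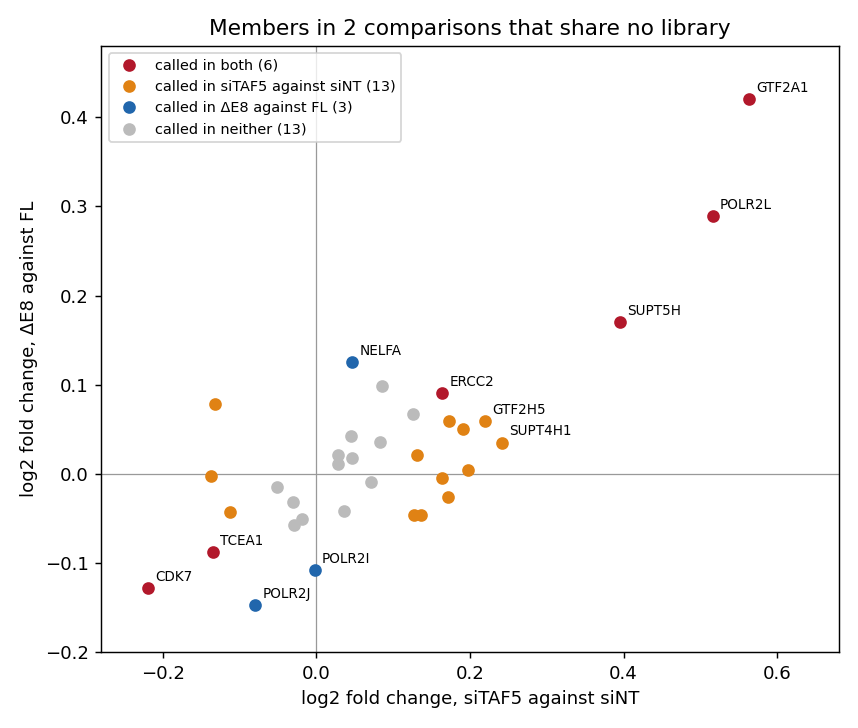
Each of the 35 genes by its log2 fold change in siTAF5 against siNT (horizontal axis) and its value for ΔE8 against FL (vertical axis), coloured by where it passed the threshold. GTF2A1, POLR2L and SUPT5H lie at the upper right, with log2 values of 0.56 and 0.42, 0.52 and 0.29, and 0.40 and 0.17.

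The knockdown comparison and the isoform comparison share no library, so their calls can be set side by side. Higher in both were GTF2A1, POLR2L, SUPT5H and ERCC2, that is 28.6% of the 14 that rose with siTAF5 and 80% of the 5 that were higher in ΔE8. Over all genes tested the same shares were 53.2% and 76%. CDK7 and TCEA1 were lower in both, 40% of 5 and 50% of 4, against 59.6% and 75.6% over all genes, though both calls in ΔE8 against FL were among those lost when 1 library was left out. None of the 35 passed in opposite directions, against 1.71% of the genes that rose with siTAF5 and 1.38% of those that fell. POLR2A, outside the 35, was higher in both, 2.06-fold with siTAF5 and 1.84-fold in ΔE8 against FL, with 926 ± 24.9 CPM in ΔE8 and 504 ± 5.98 CPM in FL libraries (SD, n = 3 each).

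Both transgene groups were finally set against cells given the non-targeting siRNA. Against siNT, both transgene groups had higher RNA levels of the genes of DSIF, TFIIA, TFIIB and most polymerase subunits and of GTF2H1. The RNA level of GTF2E2 was lower. In FL 22 rose, 2 fell and 11 did not pass by edgeR's test, 68.6% called against 54.6% of all genes tested. Over all genes tested, 27.8% rose and 26.8% fell. Among genes of the same range of levels 72.8% were called, 42.8% higher and 30% lower. In ΔE8 22 rose, 4 fell and 9 did not pass, 74.3% called against 62.2% of all genes tested. Over all genes tested, 30.8% rose and 31.4% fell. Among genes of the same range 78.1% were called, 43.7% higher and 34.4% lower. With upper-quartile scaling the ΔE8 split was 20 higher and 9 lower, and in FL 4 genes were lower in place of 2. FL and siNT libraries were apart for 24 of the 35, against 59.7% of all genes tested, and those of ΔE8 and siNT for 27, against 65.7% of all. Called changes of at least 1.2-fold were 10 of the 35 (28.6%) in each, against 29.8% of all genes tested in FL and 40.7% in ΔE8. Among genes of the same range the shares were 26.7% in FL and 38% in ΔE8. These comparisons share the siNT libraries.

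In ΔE8 against siNT, POLR2L and GTF2A1 were each higher 1.6-fold (log2 0.68, SE 0.032, edgeR adjusted p = 6.65e-13 for POLR2L, and log2 0.68, SE 0.033, edgeR adjusted p = 8.89e-13 for GTF2A1). SUPT5H was higher 1.56-fold (log2 0.64, SE 0.021, edgeR adjusted p = 6.79e-15) and SUPT4H1 1.36-fold (log2 0.44, SE 0.029, edgeR adjusted p = 6.75e-11). GTF2E2 fell by 0.24 on the log2 scale (SE 0.032, edgeR adjusted p = 1.48e-06), and CDK7, NELFB and TCEA1 by 0.15, 0.10 and 0.09. The call of CDK7 was lost without ΔE8 replicate 2 (log2 -0.11) or siNT replicate 3 (log2 -0.12), and that of TCEA1, whose groups overlapped, without ΔE8 replicate 2, siNT replicate 2 or siNT replicate 3 (log2 -0.06, -0.07 and -0.08). In FL against siNT, SUPT5H was higher 1.39-fold (SE of the log2 value 0.021, edgeR adjusted p = 2.06e-12), GTF2H1 1.33-fold, SUPT4H1 1.32-fold and POLR2L 1.31-fold, while GTF2E2 fell by 0.32 (SE 0.032, edgeR adjusted p = 6.98e-08) and ERCC2 by 0.15 (SE 0.027, edgeR adjusted p = 8.37e-05). GTF2A1 was higher in FL by log2 0.26 (SE 0.033, edgeR adjusted p = 1.8e-06). In FL cells, whose TAF5 RNA level was 2.63-fold that of siNT, both DSIF genes, POLR2L and GTF2A1 stood above their siNT levels. Whether the TAF5 level has a part in this was not tested. Without 1 library the calls of MNAT1 in FL (FL replicate 1 or siNT replicate 1, log2 0.09 and 0.085), of POLR2J in FL (FL replicate 1 or siNT replicate 2 or 3, log2 0.096 to 0.101), of MNAT1 in ΔE8 (siNT replicate 1, log2 0.10) and of NELFE in ΔE8 (ΔE8 replicate 2 or 3 or siNT replicate 2, log2 0.064 to 0.078) were lost.

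**Figure D4:**
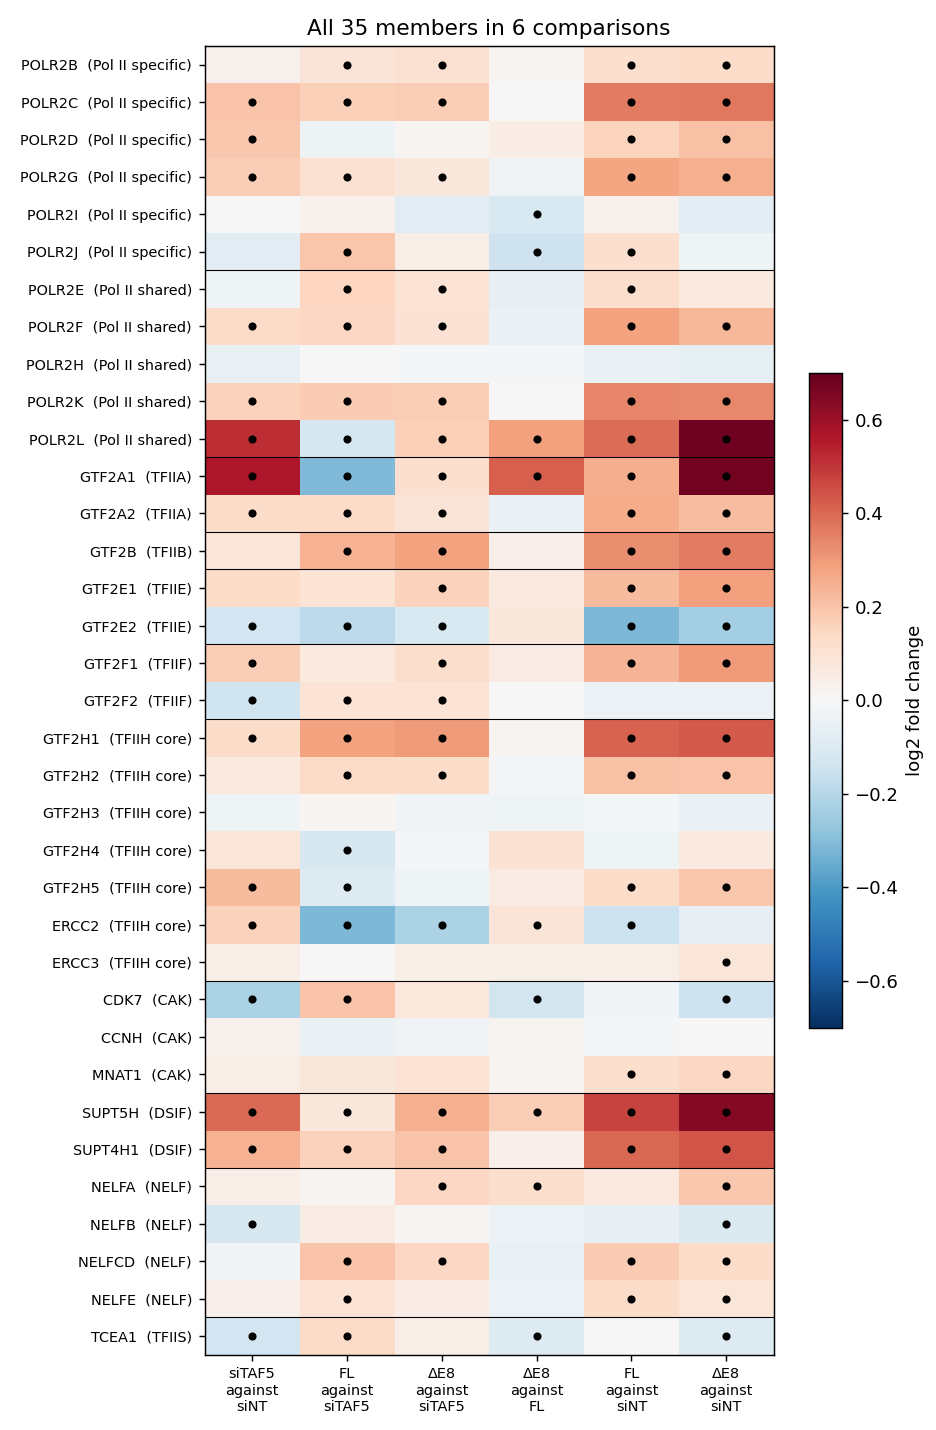
Log2 fold change of the 35 genes (rows, grouped by complex) in 6 comparisons (columns), with red for higher and blue for lower in the first group named, and a dot where the adjusted p was under 0.05. Pol II specific and Pol II shared stand for subunits of RNA polymerase II alone and those shared with other RNA polymerases, and CAK for the TFIIH kinase module; the rows of POLR2H, GTF2H3 and CCNH hold no dot.

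Values by group follow for genes not yet described in full. GTF2F1, the large TFIIF subunit, averaged 165 ± 4.36 CPM in ΔE8, 158 ± 2.35 CPM in FL, 151 ± 4.06 CPM in siTAF5 and 134 ± 2.54 CPM in siNT libraries (SD, n = 3 each). POLR2K, a zinc-binding subunit shared by the polymerases, averaged 42.8 ± 1.12 CPM in ΔE8, 43.0 ± 1.48 CPM in FL, 38.0 ± 0.256 CPM in siTAF5 and 33.9 ± 1.67 CPM in siNT libraries. Both were called higher than siNT in each of the other groups. POLR2F averaged 79.2 ± 3.13 CPM in ΔE8, 81.7 ± 2.17 CPM in FL, 73.9 ± 1.23 CPM in siTAF5 and 67.3 ± 1.35 CPM in siNT libraries, and POLR2G 60.8 ± 0.593 CPM in ΔE8, 61.9 ± 1.26 CPM in FL, 57.6 ± 1.24 CPM in siTAF5 and 51.2 ± 0.93 CPM in siNT libraries. POLR2D averaged 122 ± 0.924 CPM in ΔE8, 118 ± 3.91 CPM in FL, 121 ± 1.03 CPM in siTAF5 and 106 ± 3.96 CPM in siNT libraries, and it did not pass in FL against siTAF5 (log2 -0.04, edgeR adjusted p = 0.344; lower at log2 -0.08 with scaling by totals), where its stalk partner POLR2G was called higher. Whether the 2 differ was not tested. POLR2B averaged 195 ± 5.92 CPM in ΔE8, 194 ± 5.31 CPM in FL, 182 ± 0.669 CPM in siTAF5 and 178 ± 2.45 CPM in siNT libraries, and was called higher in both transgene groups than in either group without a transgene. POLR2E, a subunit shared by the polymerases, averaged 238 ± 7.68 CPM in ΔE8, 247 ± 3.24 CPM in FL, 222 ± 5.16 CPM in siTAF5 and 227 ± 8.34 CPM in siNT libraries. It was called higher in both transgene groups than in siTAF5, and against siNT in FL but not in ΔE8 (log2 0.07, edgeR adjusted p = 0.0511). That value passed with the replicate block (edgeR adjusted p = 0.0453), with DESeq2 (adjusted p = 0.0378), with scaling by totals (edgeR adjusted p = 0.0214), and without siNT replicate 1 or ΔE8 replicate 1 (log2 0.10 and 0.09). GTF2E1, the lowest of the 35 in CPM, averaged 19.3 ± 0.222 CPM in ΔE8, 18.4 ± 0.506 CPM in FL, 17.2 ± 1.27 CPM in siTAF5 and 15.8 ± 0.745 CPM in siNT libraries, the reverse order of GTF2E2 with respect to siNT.

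Of the 35, 32 passed the threshold in at least 1 of the 6 comparisons, against 79.1% of all genes tested, and 3 in none: POLR2H, a shared polymerase subunit, the TFIIH core subunit GTF2H3 and the cyclin CCNH. POLR2H averaged 45.8 ± 0.939 CPM in ΔE8, 46.4 ± 1.28 CPM in FL, 46.3 ± 0.776 CPM in siTAF5 and 47.9 ± 0.772 CPM in siNT libraries (SD, n = 3 each). CCNH averaged 37.8 ± 0.569 CPM in ΔE8, 37.3 ± 0.479 CPM in FL, 38.4 ± 0.901 CPM in siTAF5 and 37.7 ± 1.38 CPM in siNT libraries. GTF2H3 averaged 93.4 ± 3.15 CPM in ΔE8, 95.5 ± 1.08 CPM in FL, 94.5 ± 0.478 CPM in siTAF5 and 96.5 ± 5.21 CPM in siNT libraries. For these 3 the group means lay within a few CPM of each other. Each passed under some alternative, POLR2H with upper-quartile scaling in both transgene groups against siNT (log2 -0.08 in FL and -0.105 in ΔE8), CCNH with scaling by totals in FL against siTAF5 (log2 -0.09), and GTF2H3 without siNT replicate 1 in siTAF5 and in ΔE8 against siNT (log2 -0.07 and -0.09) and with upper-quartile scaling in ΔE8 (log2 -0.09). ERCC3, the translocase by which TFIIH opens promoter DNA, passed once, in ΔE8 against siNT at log2 0.09 (SE 0.031, edgeR adjusted p = 0.023), and lost the call without ΔE8 replicate 1 or 3 or siNT replicate 1 or 3, at log2 values between 0.07 and 0.09. GTF2H2, another TFIIH core subunit, has the near copy GTF2H2C. With both counted together, its calls were the same in all 6 comparisons, higher in each transgene group and not past the threshold with siTAF5 or between the isoforms.

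Summed over the 35 genes, the level was 3108 ± 13.0 CPM in ΔE8, 3032 ± 38.5 CPM in FL, 2909 ± 9.84 CPM in siTAF5 and 2705 ± 2.86 CPM in siNT libraries (SD, n = 3 each). On this scale no library of one group reached the range of another. As shares of the unscaled library totals, FL at 0.2959% to 0.3013% and siTAF5 at 0.2947% to 0.2975% overlapped. The sums were above siNT by 14.9% in ΔE8, 12.1% in FL and 7.53% in siTAF5. SUPT5H is the most abundant of the 35 in CPM, and without it the sums were above siNT by 10.5%, 9.29% and 5.03% in the same order of groups. The median log2 change of the 35 was 0.07 in siTAF5 against siNT and 0.09 in FL and in ΔE8 against siTAF5. It was 0.01 in ΔE8 against FL, 0.13 in FL against siNT and 0.14 in ΔE8 against siNT. The median over all genes tested lay between -0.01 and 0.01. Genes of the same range of levels were called higher more often than lower in these comparisons except ΔE8 against FL. The medians of the 35 also depended on the scaling. With scaling by totals they were 0.045 in FL against siTAF5 and 0.104 in siTAF5 against siNT. With upper-quartile scaling the median was 0.1 in ΔE8 against siNT.

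**Figure D5:**
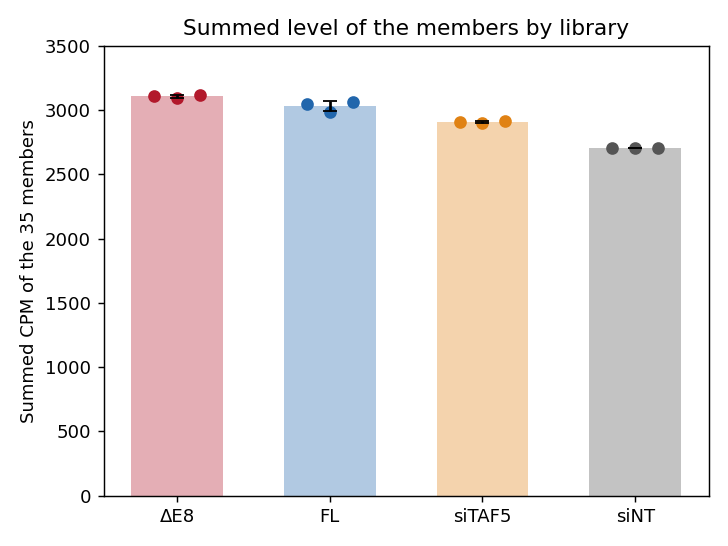
Summed level of the 35 genes in CPM (vertical axis, from 0) in each group; bars are means, error bars SD and points the 3 libraries. The sums run from 3093 to 3117 CPM in ΔE8, 2989 to 3061 CPM in FL, 2899 to 2919 CPM in siTAF5 and 2703 to 2709 CPM in siNT libraries.

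Genes that serve the polymerase without belonging to it were followed in 3 lists. Of 14 genes for its assembly and nuclear import, a list that also holds the polymerase-associated protein POLR2M, 4 rose and 5 fell with siTAF5 by edgeR's test, against 24.7% and 25.0% of all genes tested. In ΔE8 against FL, 3 were higher and 4 lower, POLR2M among the lower ones in both comparisons, against 17.3% and 19.7% of all genes tested. RPAP2, a polymerase-associated phosphatase that also acts in its import, averaged 59.2 ± 1.09 CPM in ΔE8, 50.1 ± 2.24 CPM in FL, 46.0 ± 1.7 CPM in siTAF5 and 29.8 ± 1.32 CPM in siNT libraries (SD, n = 3 each). It rose by log2 0.63 with siTAF5 (SE 0.041, edgeR adjusted p = 1.82e-10) and was higher by log2 0.24 in ΔE8 against FL (SE 0.039, edgeR adjusted p = 4.48e-05). GPN1, a GTPase needed for the import of the polymerase, rose by log2 0.25 and was higher by log2 0.22 in the same comparisons. UXT, a prefoldin-like protein of the chaperone complex that assembles the polymerase, had 33.2, 35.2 and 35.7 CPM in ΔE8, 49.1, 47.6 and 47.0 CPM in FL, 33.0, 32.2 and 32.9 CPM in siTAF5 and 49.4, 47.0 and 47.2 CPM in siNT libraries. Its FL and siNT libraries overlapped, well above those of ΔE8 and siTAF5. It fell by 0.55 on the log2 scale with siTAF5 (SE 0.035, edgeR adjusted p = 1.75e-10), was higher by log2 0.55 in FL against siTAF5 (SE 0.036, edgeR adjusted p = 1.72e-10) and lower by log2 -0.47 in ΔE8 against FL (SE 0.036, edgeR adjusted p = 4.53e-09). RUVBL1, an ATPase of the same chaperone complex, fell by 0.16 with siTAF5 and was lower by log2 -0.23 in ΔE8 against FL. PIH1D1, on the same list, went the other way. It rose by log2 0.17 with siTAF5 (edgeR adjusted p = 0.00117) and was higher by log2 0.11 in ΔE8 against FL (edgeR adjusted p = 0.0382). The assembly genes thus moved both ways.

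Of 10 genes for proteins that dephosphorylate or bind the polymerase tail, 4 rose and 2 fell with siTAF5, against 24.7% and 25.0% of all genes tested, and 1 was higher and 4 lower in ΔE8 against FL, against 17.3% and 19.7%. SSU72, a phosphatase of the tail, averaged 113 ± 1.23 CPM in ΔE8, 135 ± 5.12 CPM in FL, 113 ± 3.43 CPM in siTAF5 and 143 ± 1.71 CPM in siNT libraries (SD, n = 3 each). It fell by 0.34 with siTAF5 (SE 0.029, edgeR adjusted p = 7.16e-09) and was lower by log2 -0.26 in ΔE8 against FL (SE 0.03, edgeR adjusted p = 1.01e-06). RPRD2, a tail-binding protein, rose by log2 0.22 with siTAF5 (SE 0.026, edgeR adjusted p = 8.17e-07) and was higher by log2 0.22 in ΔE8 against FL (SE 0.026, edgeR adjusted p = 1.38e-06). SCAF8, which also binds the tail, was higher by log2 0.40 in FL against siTAF5 (SE 0.025, edgeR adjusted p = 1.46e-10). A further list of 7 tested genes held 6 related copies of the 35 and TBPL1, a relative of TBP. In FL against siTAF5, 3 of the 7 rose and 2 fell, against 24.4% and 24.4% of all genes tested. GTF2H2C rose by log2 0.30, and POLR2J3 had log2 -0.29.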

How the data were processed

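The authors deposited expected counts, estimates of the reads of each gene before any normalization, of which 46.5% were not whole numbers. Tools listed in the submitters' processing notes, with no role, are STAR 2.7.0f, cutadapt 1.18, DESeq2 and Partek 10.0.23.0531, and the build is hg38. The mRNA kit was stranded, per the labels' protocols. No source used here gives the quantifier, its annotation or its use of strand.

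The analysis was planned for counts; the expected counts were rounded, moving library totals by at most 91.27. In R 4.3.3 with edgeR 4.0.16, genes were kept by filterByExpr at a minimum count of 10, leaving 19424. Scaling used TMM factors (trimmed mean of M values). The 12 libraries were fitted in 1 quasi-likelihood model of group means without a replicate block. All tests were two-sided, p-values were adjusted by Benjamini-Hochberg over these 19424, and the threshold was 0.05. SEs of log2 values came from the F statistic, as the absolute value over its root. CPM are counts at a common scaled library size, so a change is one relative to most other genes; no spike-in is named in the labels. Between replicates the chi-square over its degrees of freedom was 2.6 to 5.14, above counting noise, and the common coefficient of variation beyond counting was 2.82%.

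The genes and lists were chosen with earlier results of these data known. Values by library were given for the called genes with the largest changes, up to 6 each way in the knockdown and isoform comparisons and up to 4 in the others. Genes outside the 35 were named from their lists by adjusted p, up to 3 each way. PAX2, NEFL, NEFM and genes that failed to pass were added after their values were seen. Alternatives were scaling by totals or upper quartile, DESeq2 1.42.0, no filter or a minimum count of 50, only the 2 groups compared, a replicate block, leaving out each library, and 2 sums over near copies chosen after seeing the data. Start regions came from RefSeq (GRCh38.p14), exon lengths and overlaps from the basic set of GENCODE 29. Positions are those of the deposited table, with 1 base taken from the stop. Of the blood markers, 1 is not reported here.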

Additional observations from a re-analysis of the deposited data

How the results depend on the processing

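Every call of the 35 genes in siTAF5 against siNT, 19 in all, was the same under every alternative tried. In the other comparisons this held for 15 of 24 calls in FL against siTAF5, 14 of 21 in ΔE8 against siTAF5, 5 of 9 in ΔE8 against FL (GTF2A1, POLR2L, SUPT5H, NELFA and ERCC2), 22 of 24 in FL against siNT and 21 of 26 in ΔE8 against siNT. In siTAF5 against siNT, 21 genes in place of 14 rose with scaling by library totals. In ΔE8 against FL the 5 genes higher became 9 with scaling by library totals and 8 with a minimum count of 50, and 5 to 8 when 1 library was left out. The 4 genes lower became 1 with scaling by totals, 2 with no filter, with a minimum count of 50 or with only the 2 groups compared, and 1 to 3 when 1 library was left out. In ΔE8 against siTAF5 the 2 genes lower were 1 to 2 when 1 library was left out. With upper-quartile scaling, 4 genes in place of 2 were lower in FL against siNT and 9 in place of 4 in ΔE8 against siNT. With POLR2J2 and POLR2J3 counted in, POLR2J turned to log2 -0.003 in FL against siTAF5 and -0.028 in FL against siNT. Where the construction of an alternative does not show it, the cause was not tested.

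Any pairing of the samples by replicate number was weak. Same-numbered libraries of different groups correlated between -0.05 and 0.05 in their deviations from the group means, 0 of 18 pairs over 0.1. Still, 10 of 12 libraries correlated best with their own number, so some pairing may be present. With the replicate block, 14 genes rose and 5 fell in siTAF5 against siNT, 19 and 6 in FL against siTAF5, 19 and 2 in ΔE8 against siTAF5, 5 and 4 in ΔE8 against FL, 22 and 2 in FL against siNT and 23 and 4 in ΔE8 against siNT. Other scalings moved the median log2 change of all genes by at most 0.048 in size. In FL against siTAF5 the median of the 35 was log2 0.045 with scaling by totals, against 0.092 in the main analysis. With that scaling POLR2B, POLR2G, GTF2F2, GTF2H2, SUPT5H and NELFE lost their calls there, and POLR2D and CCNH were called lower.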
